A study of Mus musculus with 7 samples.

Results

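Genes by which the ovary makes steroid hormones, or by which its follicle cells are recognised, were read in 7 libraries of mouse uterus. The members were taken by gene symbol, as 10 of the 23282 rows of each table: Star, Cyp11a1, Hsd3b1, Cyp17a1 and Cyp19a1 for steroid synthesis, Lhcgr and Fshr for the gonadotropin receptors, and Inha, Foxl2 and Amh for granulosa cell factors. The tissue was whole uterus of C57BL/6 female mice aged 6 weeks, in which 100 ng of recombinant CXCL12, a chemokine, was infused into 1 uterine horn and saline into the other. The groups were saline (n = 2), CXCL12 Day 3 (n = 2) and CXCL12 Day 8 (n = 3), with no genetic change stated for any of them and the day, 3 or 8, of each saline library not stated. How the uterus was parted from oviduct and ovary, and the stage of the oestrous cycle of these animals, are not given in the sources used here. The labels do not say that the libraries of a group came from separate animals, so each p-value measures only the spread between these libraries.

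In the ovary, the follicle is built around an oocyte by granulosa cells, which respond to follicle-stimulating hormone, and by theca cells, which make androgens. After ovulation the follicle turns into the corpus luteum, whose luteal cells respond to luteinizing hormone and make progesterone from cholesterol. Star carries cholesterol into the mitochondrion, Cyp11a1 cuts its side chain to pregnenolone, and Hsd3b1 turns pregnenolone into progesterone. Cyp17a1 then leads to androgens, and Cyp19a1, the aromatase, turns androgens into oestrogens.

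For 6 libraries the tables held read counts, whose totals ran from 6908790 to 12308982 reads. Day 3 replicate 1 held log2 values of normalized counts, which were turned back to normalized counts, with a total of 11003222. The label of Day 8 replicate 1 gives Day 8 while the name of its table says Day 3, so the tests were also run with it in the Day 3 group. Levels are given as CPM, the reads of a gene scaled to a library total of 1000000. The reads came from the 3′ ends of transcripts, so 1 transcript gives about 1 read whatever its length and no division by length was made. A gene with no read in a library could lie at up to 3 counts, which is 0.244 to 0.434 CPM, and this limit covers counting error only. Beside the uterine label, 10 uterine identity genes summed to 1555 to 2813 CPM in the 7 libraries. No other tissue was compared, so this sum cannot show that the tissue was uterus alone. Myh11, a smooth muscle myosin, the receptors Pgr and Esr1, and Hoxa10, which patterns the uterus, led this list, and none of the 10 was at 0. In bulk tissue, fewer cells of a type and less RNA per cell cannot be told apart.

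Promoter sequence of some members is shown first, so that their start sites can be seen beside the levels. These members were picked by the place of the start site and not by how they varied. RefSeq tables of build GRCm38.p6 gave 10 windows, each from 250 bases before to 50 bases after a start site, for 7 of the 10 members, and the 4 windows whose start site lay within 100 bases of the gene start in the GENCODE annotation are printed. Star, Cyp17a1 and Amh were not matched. Both strands were searched for the NR5A half-site AAGGNCA, the cAMP response element TGACGTCA, the GATA site AGATAA and the TATA box TATAAA. Capitals mark a match, written as it stands on the printed strand.
Hsd3b1, chr3:98859745-98860044, minus strand: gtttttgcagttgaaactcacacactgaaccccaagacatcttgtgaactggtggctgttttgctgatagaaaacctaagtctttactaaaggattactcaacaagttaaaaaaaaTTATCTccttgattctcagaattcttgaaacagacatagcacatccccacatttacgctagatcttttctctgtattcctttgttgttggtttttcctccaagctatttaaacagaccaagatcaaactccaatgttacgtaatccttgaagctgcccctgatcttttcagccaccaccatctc
Cyp19a1, chr9:54268115-54268414, minus strand: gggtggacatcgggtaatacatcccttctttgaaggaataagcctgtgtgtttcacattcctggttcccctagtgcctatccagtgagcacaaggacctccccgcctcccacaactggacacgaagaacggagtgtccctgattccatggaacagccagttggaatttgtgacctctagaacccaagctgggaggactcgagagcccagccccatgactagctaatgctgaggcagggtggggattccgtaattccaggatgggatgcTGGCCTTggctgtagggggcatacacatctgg
Lhcgr, chr17:88791965-88792264, minus strand: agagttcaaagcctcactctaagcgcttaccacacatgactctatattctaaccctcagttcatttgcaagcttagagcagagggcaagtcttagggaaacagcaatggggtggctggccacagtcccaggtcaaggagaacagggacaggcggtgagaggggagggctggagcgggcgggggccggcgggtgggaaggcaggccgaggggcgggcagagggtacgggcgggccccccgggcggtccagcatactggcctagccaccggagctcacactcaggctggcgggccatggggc
Fshr, chr17:89200626-89200925, minus strand: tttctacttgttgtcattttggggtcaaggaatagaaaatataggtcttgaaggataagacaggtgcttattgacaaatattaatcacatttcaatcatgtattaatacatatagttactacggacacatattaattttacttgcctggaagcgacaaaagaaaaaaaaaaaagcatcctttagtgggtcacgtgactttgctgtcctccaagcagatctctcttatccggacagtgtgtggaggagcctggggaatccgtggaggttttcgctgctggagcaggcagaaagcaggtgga
The Hsd3b1 window held 1 GATA match on the opposite strand, 134 bases before the start site, and 11.2% of 32851 promoter windows of the same length held one. The printed Cyp19a1 window held 1 NR5A match, on the opposite strand and downstream of the start site, against 20.3% of all windows with one. Cyp19a1 windows with start sites 39196 and 74367 bases from the gene start, not printed, held no NR5A match and 2 TATA box matches each. No window of Lhcgr or Fshr held any of the 4 motifs, of which the cAMP element was found in 1.79% and the TATA box in 13.6% of all windows. A match is a description of letters and not a site of binding.

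The members fell into 4 libraries that carried them and 3 in which most were at or near 0. Star and Foxl2 were set aside, since neither fell below 44 counts or normalized counts in any library. This choice was made after their values were seen. Inha, also read in every library but down to 3 counts, was kept. The remaining 8 members summed to 3311 CPM in Day 8 replicate 2 and to 1123 in saline replicate 2. The sum was 169.9 in saline replicate 1 and 76.3 in Day 8 replicate 1. It was 1.01 in Day 8 replicate 3, 1.5 in Day 3 replicate 2 and 0.909 in Day 3 replicate 1. Both saline libraries and 2 of the 3 Day 8 libraries therefore held transcripts of these genes, and neither Day 3 library did beyond traces. The saline libraries lay far apart, as did the Day 8 libraries, which held both the highest sum and one of the lowest, while the Day 3 libraries were both at trace level.

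**Figure D1:**
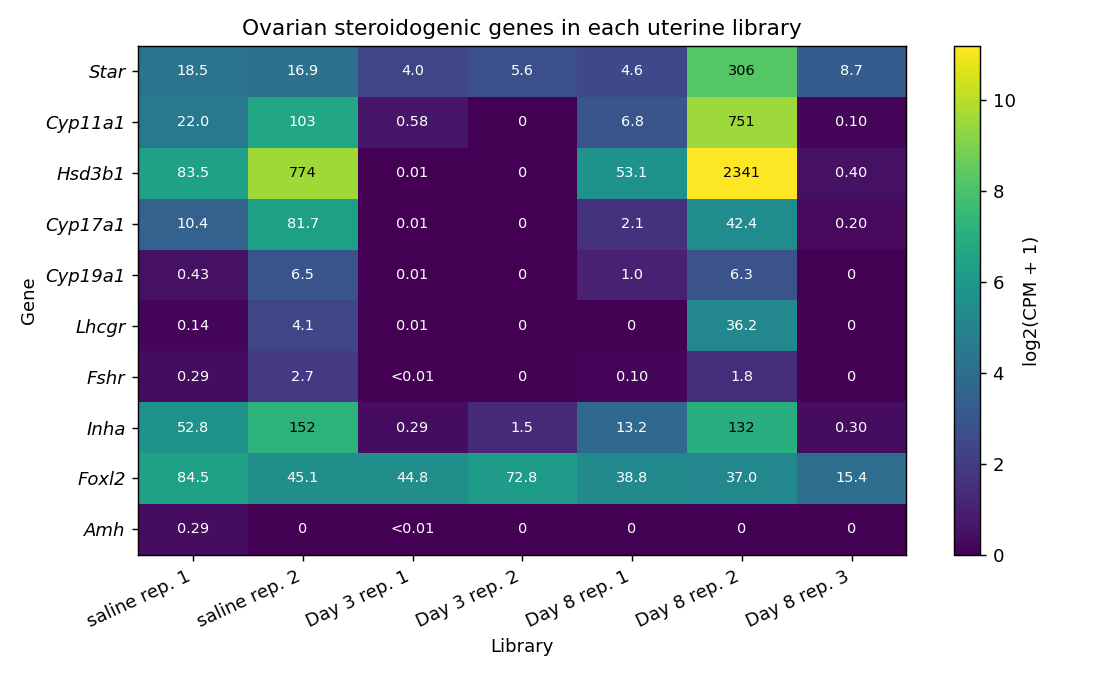
CPM of each member (rows) in each of the 7 libraries (columns), with the colour giving log2(CPM + 1) and the value printed in each cell. Day 8 replicate 2 and saline replicate 2 hold the highest values of 8 members, and Foxl2 runs from 15.4 to 84.5 in all 7 libraries.

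Hsd3b1 was the most abundant member. It lies on chr3:98852194-98859794, minus strand, in GRCm38. Its counts were 577 and 7343 in the saline libraries, 0 in Day 3 replicate 2, and 510, 28821 and 4 in the Day 8 libraries, with a normalized count of 0.08 in Day 3 replicate 1. In CPM it stood at 83.5 and 774 with saline, 0.0074 and 0 at Day 3, and 53.1, 2341 and 0.402 at Day 8. The mean was 429 ± 488 (SD, n = 2) with saline and 798 ± 1337 (SD, n = 3) at Day 8, so that each group's spread exceeded its own mean. Day 8 replicate 2 exceeded saline replicate 2 by 3.03-fold, saline replicate 1 by 28.0-fold and Day 8 replicate 1 by 44.1-fold.

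Hsd3b1 has close relatives in the mouse genome, and the authors counted reads with several alignments too. Hsd3b2, Hsd3b3 and Hsd3b6 held between 0 and 6 counts in each of the 6 count libraries. None of the 451 words of 50 bases in the last 500 bases of the Hsd3b1 transcript occurred in another gene's transcripts, and the same count of 0 was found for each of the other 9 members. No other gene overlapped the last 1000 bases of any member.

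Cyp11a1 (chr9:58006411-58027023, plus strand) followed the same libraries. Its counts were 152 and 973 with saline, 0 in Day 3 replicate 2, and 65, 9247 and 1 at Day 8, and its normalized count was 6.4 in Day 3 replicate 1. This was 22.0 and 103 CPM with saline, 0.582 and 0 at Day 3, and 6.77, 751 and 0.101 at Day 8. Day 8 replicate 2 stood 7.33-fold above saline replicate 2 and 111-fold above Day 8 replicate 1, a wider gap than that of Hsd3b1 against both libraries.

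Star (chr8:25806555-25815982, plus strand) differed from both enzymes in that no library lacked it. Counts were 128 and 160 with saline, 56 in Day 3 replicate 2, and 44, 3771 and 86 at Day 8, with a normalized count of 44.3 in Day 3 replicate 1. On the CPM scale, the range over 6 libraries was 4.03 to 18.5, while Day 8 replicate 2 reached 306. The saline libraries, at 18.5 (95% Poisson interval 15.5 to 22.0) and 16.9 (14.3 to 19.7), did not differ beyond counting error, although their Hsd3b1 levels were far apart. Only Day 8 replicate 2 stood far above the rest.

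Cyp17a1, the enzyme that opens the androgen branch and that theca cells carry in the ovary, lies on chr19:46667165-46673172, minus strand. Its counts were 72 and 775 with saline, 0 in Day 3 replicate 2, and 20, 522 and 2 at Day 8, with 0.08 normalized counts in Day 3 replicate 1. At 81.7 CPM (95% Poisson interval 76.0 to 87.6), saline replicate 2 stood above Day 8 replicate 2 at 42.4 (38.8 to 46.2), which reverses the order of Hsd3b1 and Cyp11a1. Insl3, a peptide hormone of theca cells, was at 0 counts in all 6 count libraries. The theca list also held Gli1 and Ptch1. Gli1 was read in all 7 libraries, at 7.28 to 31.1 CPM. Ptch1 had 16 and 12 counts with saline, 0 in Day 3 replicate 2, and 7, 13 and 3 at Day 8. Its normalized count in Day 3 replicate 1 was 2.16.

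Cyp19a1 (chr9:54165937-54268110, minus strand), the aromatase of granulosa cells, was low throughout. It had 3 and 62 counts with saline, 0 in Day 3 replicate 2, and 10, 77 and 0 at Day 8, and 0.07 normalized counts in Day 3 replicate 1. At 6.53 CPM in saline replicate 2 and 6.26 in Day 8 replicate 2, with Poisson intervals of 5.01 to 8.37 and 4.94 to 7.82, the top 2 libraries could not be separated by counting.

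The gonadotropin receptors divided these same 2 libraries. Lhcgr (chr17:88716481-88791990, minus strand), through which luteinizing hormone acts on luteal, theca and mature granulosa cells, had 446 counts in Day 8 replicate 2 and 39 in saline replicate 2. It had 1 count in saline replicate 1, 0 in the other 3 count libraries and 0.07 normalized counts in Day 3 replicate 1. Day 8 replicate 2, at 36.2 CPM, exceeded saline replicate 2, at 4.11, by 8.82-fold. Fshr (chr17:88984952-89200675, minus strand), the granulosa cell receptor for follicle-stimulating hormone, had 26 counts in saline replicate 2 and 22 in Day 8 replicate 2. It had 2 in saline replicate 1, 1 in Day 8 replicate 1 and 0 in the other 2 count libraries, with 0.05 normalized counts in Day 3 replicate 1. The Poisson intervals of its top 2 libraries, 1.79 to 4.01 and 1.12 to 2.71 CPM, overlapped.

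Inha, the alpha subunit of the inhibins that granulosa cells secrete, lies on chr1:75507077-75510366, plus strand. Its counts were 365 and 1439 with saline, 15 in Day 3 replicate 2, and 127, 1623 and 3 at Day 8, with a normalized count of 3.24 in Day 3 replicate 1. In CPM these are 52.8 and 152 with saline, 0.295 and 1.5 at Day 3, and 13.2, 132 and 0.302 at Day 8. Inha thus named the same 4 libraries as Hsd3b1, but saline replicate 2 came out above Day 8 replicate 2, and the whole range among the 4 was far narrower.

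Foxl2 (chr9:98955288-98958543, plus strand), a forkhead factor that maintains granulosa cell identity and is also known in the uterine wall, did not go with the others. It had 584 and 428 counts with saline, 726 in Day 3 replicate 2 and 373, 455 and 153 at Day 8, and a normalized count of 493 in Day 3 replicate 1. Its levels ran from 15.4 to 84.5 CPM, and the Day 3 libraries, in which Hsd3b1 was at 0.0074 and 0, held 44.8 and 72.8. Across the 7 libraries, which share whatever sets the ovarian sum of each, Pearson's r with Hsd3b1 on log2(CPM + 1) was 0.12 for Foxl2. It was 0.98 for Cyp11a1, 0.97 for Inha, 0.95 for Cyp17a1, 0.93 for Cyp19a1, 0.87 for Fshr, 0.80 for Lhcgr and 0.76 for Star. Amh, the anti-Müllerian hormone of growing follicles, had 2 counts in saline replicate 1 and 0 in the other 5 count libraries, and was too low to be tested.

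Whether luteal or granulosa genes led was read from sums. The luteal members were Star, Cyp11a1, Hsd3b1 and Lhcgr, and the granulosa members Cyp19a1, Fshr, Inha, Foxl2 and Amh, although mature granulosa cells also use the luteal set and luteal cells keep some of the granulosa set. The 4 luteal members had their highest level in Day 8 replicate 2, while Cyp17a1, Cyp19a1, Fshr and Inha had theirs in saline replicate 2. Luteal reads made up 95.1% (95% exact binomial interval 94.9 to 95.3) of the luteal and granulosa reads in Day 8 replicate 2 and 81.3% (80.6 to 82.1) in saline replicate 2. They made up 54.8% (51.8 to 57.7) in Day 8 replicate 1 and 47.3% (45.0 to 49.6) in saline replicate 1. In Day 8 replicate 3 the share was 36.8% (30.8 to 43.2), in Day 3 replicate 2 it was 7.03% (5.35 to 9.03) and in Day 3 replicate 1 it was 9.30%, and in these 3 libraries the granulosa sum was almost wholly Foxl2.

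Without Foxl2, a choice made after its values were seen, luteal reads exceeded granulosa reads in all 7 libraries, with shares of 69.8% in saline replicate 1, 84.8% in saline replicate 2, 81.8% in Day 8 replicate 1 and 96.1% in Day 8 replicate 2. The shares of 93.8%, 78.9% and 96.8% in Day 3 replicates 1 and 2 and Day 8 replicate 3 rested on Star, since Hsd3b1 gave at most 4.4% of their luteal sum. Hsd3b1 gave 67.2% to 86.2% of the luteal sum in the 4 libraries that carried the members. Without Hsd3b1 and with Foxl2, the luteal share was above 50% only in Day 8 replicate 2, at 86.1%. It was 22.7% in saline replicate 1, 37.5% in saline replicate 2 and 17.6% in Day 8 replicate 1. The luteal lead over the full granulosa set in saline replicate 2 and Day 8 replicate 1 thus depended on the single gene Hsd3b1, that of Day 8 replicate 2 did not, and saline replicate 1 had none. Ptgfr, Prlr, Sfrp4 and Parm1, the other luteal genes that belong to no further list, were then added to the luteal side. The luteal share was now above 50% in 6 of the 7 libraries. It was 62.9% in saline replicate 1, 53.9% in Day 3 replicate 1, 88.2% in Day 8 replicate 3 and 44.8% in Day 3 replicate 2. The added genes were read in every library, also where Hsd3b1 was at or near 0. Day 8 replicate 3 held 738 counts of Sfrp4, 145 of Ptgfr and 139 of Prlr beside 4 of Hsd3b1. Shares in such libraries thus rested on genes that were read without Hsd3b1.

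The ratio of Hsd3b1 to Inha carried the same contrast with 1 gene on each side. It was 1.58 in saline replicate 1, 5.10 in saline replicate 2, 4.02 in Day 8 replicate 1 and 17.8 in Day 8 replicate 2. Cyp11a1 to Inha was 0.416, 0.676, 0.512 and 5.70 in the same order. The first 3 libraries lay close together for Cyp11a1, and Day 8 replicate 2 stood well apart from them.

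**Figure D2:**
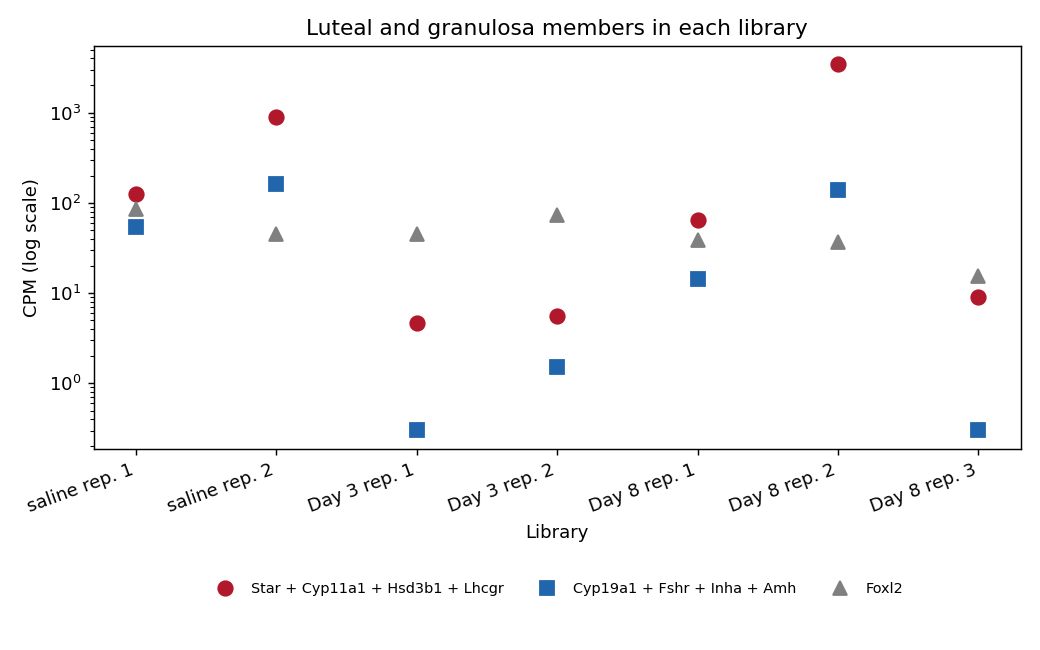
Summed CPM (log axis) of the 4 luteal members (circles) and of the granulosa members without Foxl2 (squares), with Foxl2 alone (triangles), in each of the 7 libraries. The luteal sum spans 4.62 to 3435 and Foxl2 15.4 to 84.5, and the luteal sum is 24.6 times the granulosa sum without Foxl2 in Day 8 replicate 2, against 2.31 to 5.58 times in both saline libraries and Day 8 replicate 1.

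Genes outside the 10 members were read in lists named for ovarian cell types. Many of them, such as Fdx1 and Scarb1, were read in all 7 libraries, so the lists do not show which cells were present. Of 10 other luteal genes, the 4 most abundant were Fdx1, the ferredoxin that passes electrons to Cyp11a1, Scarb1, the receptor that takes up cholesterol from high-density lipoprotein, Sfrp4, a secreted Wnt antagonist, and Hsd17b7, an enzyme of cholesterol and oestrogen synthesis. Their levels in Day 8 replicate 2 were 475, 281, 307 and 423 CPM. Over the other 6 libraries, Fdx1 ran from 36.9 to 145, Scarb1 from 29.7 to 65.6, Sfrp4 from 9.96 to 74.2 and Hsd17b7 from 2.72 to 15.9, so Day 8 replicate 2 lay above each of them. The whole list summed to 2021 CPM there and to 172 to 403 in the other 6 libraries. Parm1, named after its values were seen, was at 5.93 CPM in that library, within the range of 5.73 to 19.2 in the other 6.

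Oocyte genes were carried by the same 4 libraries, and in the 3 where they were highest their sum did not follow the luteal sum. The 12 genes summed to 103 CPM in saline replicate 1, 120 in saline replicate 2 and 117 in Day 8 replicate 2, while the luteal members stood at 124, 897 and 3435 in these libraries. The oocyte sum was 24.4 in Day 8 replicate 1, and 2.76, 5.52 and 6.04 in Day 3 replicates 1 and 2 and Day 8 replicate 3. Gdf9, a growth factor of the oocyte, stood at 22.7, 22.0 and 22.1 CPM in the 3 highest libraries. Ooep was less even, at 5.4, 20.3 and 15.1 in the same order. Hsd3b1 counts were 3.68, 35.1 and 106 times those of Gdf9 in saline replicate 1, saline replicate 2 and Day 8 replicate 2. Padi6 and Nlrp5, both maternal-effect genes of the egg, had 0 counts in Day 3 replicate 2, and Ooep kept 43 counts there.

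The 10 other granulosa genes summed to 333 to 867 CPM over all 7 libraries, and the 4 most abundant, Kctd14, Gja1, Wt1 and Inhbb, were read in every library. Inhbb, an inhibin and activin beta subunit, was highest at Day 3, at 110 and 116 CPM, against 22.6 and 76.1 with saline. Nr5a1 and Nr5a2, nuclear receptors that switch on steroidogenic genes, were named after their values were seen. Nr5a1 had 27 and 63 counts with saline, 0 in Day 3 replicate 2, and 7, 157 and 0 at Day 8. Nr5a2 had 320 and 450 with saline, 24 in Day 3 replicate 2, and 23, 568 and 20 at Day 8. Nr5a1 thus followed the 4 libraries, while Nr5a2 was low in Day 8 replicate 1 as well.

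Lists for neighbouring tissues did not order the libraries in this way. The 7 oviduct genes summed to 384 to 924 CPM, led by Ovgp1, the oviduct glycoprotein, and the highest sum, in Day 3 replicate 2, fell where 7 of the 10 members were at 0. Foxj1, Dynlrb2, Sec14l3 and Dmbt1, of which Foxj1 and Dmbt1 were named after their values were seen, were at 0 in Day 8 replicate 3. Dmbt1 had at most 4 counts in any count library and was also at 0 in saline replicate 2 and Day 8 replicate 1. Ovgp1 was still at 235 CPM in Day 8 replicate 3, and Tppp3, at 149 CPM, had its highest level there. Adrenal cortex genes summed to at most 3.15 CPM, and Cyp11b1 and Cyp11b2, which make its corticosteroids, were at 0 counts in all 6 count libraries. Mc2r reached 1.23 CPM at most. Cyp21a1 was at 2.0 and 2.0 CPM with saline, 1.9 and 1.8 at Day 3, and 0.10, 0.41 and 0 at Day 8. Its log2 change at Day 8 was -3.16 against saline (SE 1.12, edgeR adjusted p = 0.96). Against Day 3 it was -3.35 (SE 0.73, limma adjusted p = 0.64). The part of any such tissue in the levels of the members was not tested.

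**Figure D3:**
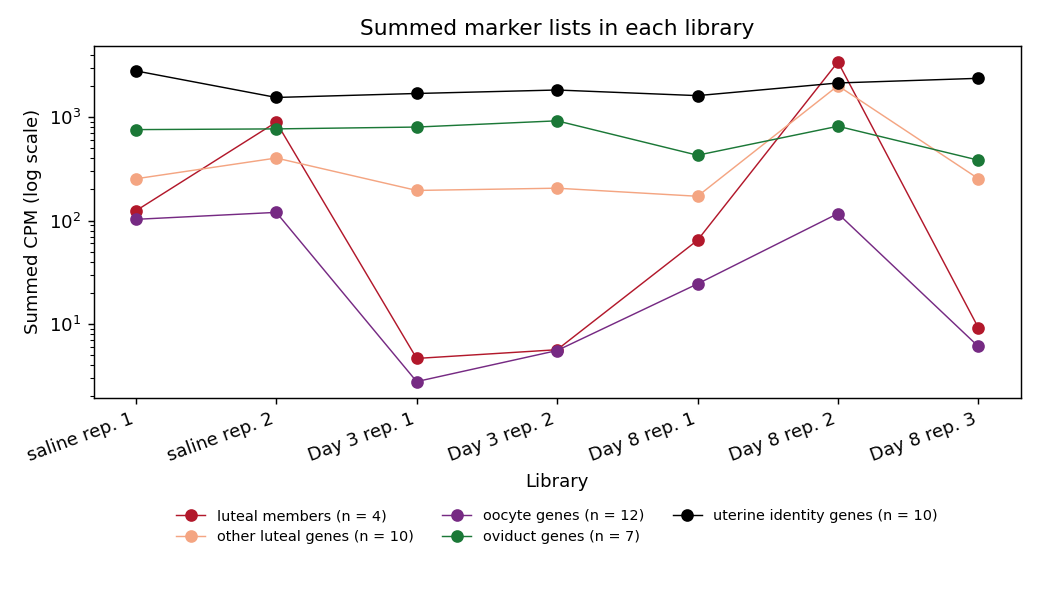
Summed CPM (log axis) of 5 gene lists in each of the 7 libraries, with lines joining the libraries of one list for the eye only. The oocyte sum is alike in saline replicates 1 and 2 and Day 8 replicate 2 (103 to 120) while the luteal members span 124 to 3435 there, and the oviduct and uterine identity sums stay within 384 to 924 and 1555 to 2813.

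The Day 8 and saline libraries were compared to ask whether CXCL12 left the members higher or lower after 8 days. After TMM normalization no group lay wholly above or below the other for any member, against 9.17% of 15388 genes with every Day 8 library higher and 10.1% with every one lower. On plain CPM Foxl2 was lower in every Day 8 library, at 38.8, 37.0 and 15.4 against 84.5 and 45.1, while after TMM saline replicate 2, at 41.8, fell below Day 8 replicate 1, at 44.1. None of the 9 tested members changed 2-fold with an unadjusted P of 0.05 in edgeR's quasi-likelihood test (the unadjusted rule), where 1.53% of the genes were higher and 1.42% lower, 2.94% in all. No gene changed 2-fold with a Benjamini-Hochberg adjusted p of 0.1 (the adjusted rule), where 658 genes had an unadjusted P under 0.05, and DESeq2 passed 49 genes and none of the members. The log2 fold changes (Day 8 over saline) were 2.80 (SE 1.68) for Star, 2.19 (SE 2.34) for Cyp11a1, 1.06 (SE 2.25) for Hsd3b1 and 2.63 (SE 2.39) for Lhcgr. They were -1.45 (SE 1.58) for Cyp17a1, -0.34 (SE 1.58) for Cyp19a1, -1.05 (SE 1.59) for Fshr, -0.88 (SE 1.53) for Inha and -0.80 (SE 0.47) for Foxl2. The luteal members were all above 0 and the others all below it, with edgeR adjusted p-values of 0.96 to 0.99, and the median over all genes was -0.01.

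Single libraries decided these signs. Without Day 8 replicate 2, the log2 fold change was -1.14 for Star, -3.88 for Cyp11a1, -3.70 for Hsd3b1 and -7.20 for Lhcgr, each of opposite sign. In that fit Cyp11a1, Lhcgr, Cyp17a1 and Inha were lower at Day 8 by the unadjusted rule in edgeR, 4 of 9 members against 1.97% of genes lower and 1.15% higher, with an adjusted p of 1.00 for Cyp11a1. Without saline replicate 2, Cyp17a1 stood at 0.80, Cyp19a1 at 2.75, Fshr at 1.40 and Inha at 0.16, so that all but Foxl2 were above 0 and none passed the rule. Foxl2 kept its sign without either library. With Day 8 replicate 1 counted with Day 3, Star was higher at Day 8 than with saline by the unadjusted rule, the single member to pass.

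**Figure D4:**
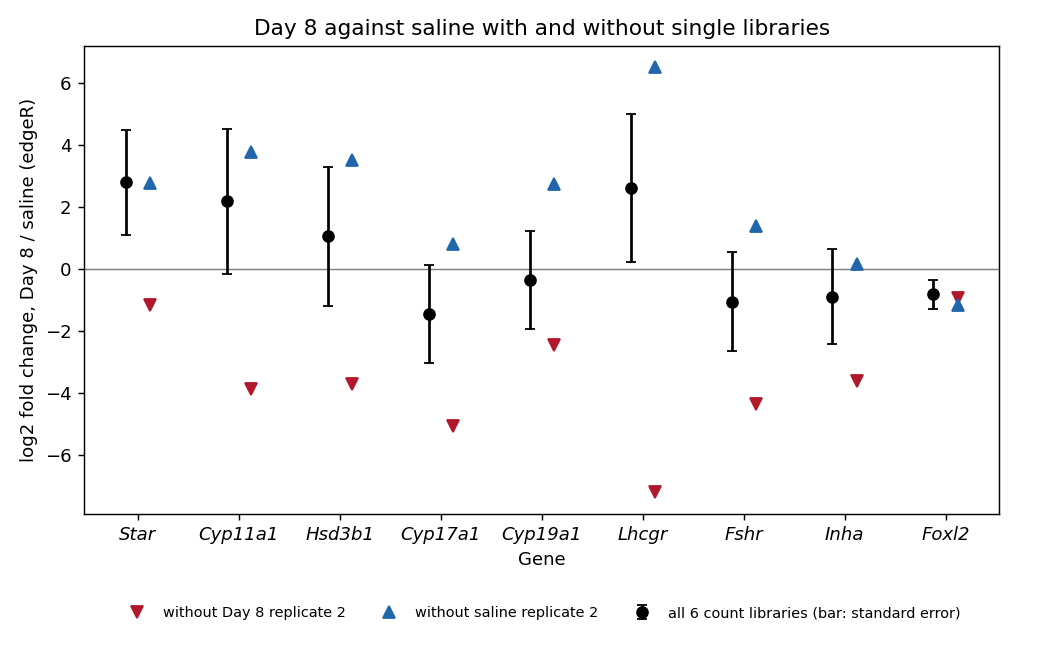
Log2 fold change of Day 8 over saline for 9 members in edgeR, from all 6 count libraries (circles, bars showing the standard error), without Day 8 replicate 2 (downward triangles) and without saline replicate 2 (upward triangles). Star, Cyp11a1, Hsd3b1 and Lhcgr are above 0 with all libraries and below 0 without Day 8 replicate 2, while Foxl2 stays below 0 in each.

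Day 3 was compared with saline on log2(normalized count + 1) values, a scale that understates the change of low genes, by limma over all 7 libraries. After quantile normalization both Day 3 libraries lay below both saline libraries for 7 of 9 tested members, Star, Cyp11a1, Hsd3b1, Cyp17a1, Cyp19a1, Fshr and Inha, where 21.7% of 16455 genes did so. Lhcgr, with 1 count in saline replicate 1, joined them on plain CPM only. By the unadjusted rule 4 members were lower and none higher, against 2.72% of genes lower and 2.02% higher, 4.74% in all. Their log2 differences were -10.92 (SE 3.04) for Hsd3b1, -7.72 (SE 1.93) for Cyp17a1, -7.17 (SE 3.02) for Cyp11a1 and -6.40 (SE 2.14) for Inha, each with a limma adjusted p of 0.64. No member and no gene passed the adjusted rule, while 1199 genes had an unadjusted P under 0.05. Without saline replicate 2, Cyp17a1 alone passed the unadjusted rule, and with Day 8 replicate 1 counted with Day 3, Inha and Cyp17a1 did.

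The other 5 tested members did not pass in this comparison. Star was at -1.54 (SE 1.63), Cyp19a1 at -3.59 (SE 1.89), Fshr at -2.67 (SE 1.52) and Lhcgr at -2.54 (SE 2.79) on the log2 scale. Foxl2 differed by 0.08 (SE 0.53), a value whose sign turned under library-size scaling alone, at -0.11. Of the 11 tested oocyte genes, 9 were also lower by the unadjusted rule, among them Gdf9 at -5.04 (SE 0.79), with a limma adjusted p of 0.64.

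The Day 8 and Day 3 libraries were set against each other in the same limma fit, which shares the Day 3 libraries with the comparison above. Hsd3b1 and Cyp17a1 were higher at Day 8 by the unadjusted rule, 2 of 9 members against 2.41% of genes higher, 2.50% lower and 4.90% in all, with log2 differences of 8.41 (SE 2.78) and 4.80 (SE 1.76) and limma adjusted p-values of 0.70. The same 2 genes were higher in every Day 8 library than in both Day 3 libraries, as 15.1% of genes were, although Day 8 replicate 3 exceeded them by no more than 4 counts of Hsd3b1 and 2 of Cyp17a1. Foxl2 was lower in every Day 8 library after normalization, as 15.6% of genes were, with a difference of -0.99 (SE 0.49). No member passed the adjusted rule and neither did any gene, with 1168 genes at an unadjusted P under 0.05. When whole reads recovered from Day 3 replicate 1 were tested with edgeR, 6 members were higher at Day 8 by the unadjusted rule, against 3.79% of genes higher, and none by the adjusted rule. In limma the number was 0 without Day 3 replicate 1, without Day 3 replicate 2 and with no filter on low values. Without Day 8 replicate 2, the log2 difference was 5.64 for Hsd3b1 and 3.01 for Cyp17a1, both still past the unadjusted rule, and Star was at 0.37 in place of 2.23. With Day 8 replicate 1 counted with Day 3, Star was higher and Foxl2 lower by the unadjusted rule in limma, and neither Hsd3b1 nor Cyp17a1 passed.

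Of 25 other genes of steroid synthesis, cholesterol supply and its control, 21 were tested. Between Day 8 and saline none passed the unadjusted rule, and their median was 0.17 (log2). At Day 3 against saline 5 were lower and none higher, beside 2.72% and 2.02% of all genes, and their median difference was -0.83 against 0.02 over all genes. At Day 8 against Day 3, Hsd17b1, which makes the active oestrogen, was higher and none was lower, beside 2.41% and 2.50% of all genes. The most abundant were Npc2, which moves cholesterol out of the lysosome, Cyb5a, a partner of Cyp17a1, Fdx1, and Tspo of the outer mitochondrial membrane. Tspo stayed within 78.0 to 120 CPM in all 7 libraries, while Cyb5a was highest in Day 8 replicate 2, at 616.

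The genes whose pattern lay closest to Hsd3b1, the member with the highest mean, were sought among 2013 genes with a mean of at least 1 CPM and a log2 range of at least 2. Outside all gene lists, the 5 with the highest Pearson's r over the 7 libraries were Lect1 (0.98), Omt2b (0.98), Defb19 (0.98), Gm15698 (0.98) and Oas1e (0.98). Each was at 0 in Day 3 replicate 2 and Day 8 replicate 3, and at 1.56 to 8.23 CPM in Day 8 replicate 1. Unlike Hsd3b1, the latter 4 were higher in saline replicate 2 than in Day 8 replicate 2, as Gm15698 was with 30.8 against 24.6 CPM. The gap was smallest for Omt2b, at 6.32 against 6.01, and counting error was not worked out for these genes.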

How the data were processed

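QuantSeq 3′ mRNA sequencing was analysed in 7 mouse uterus libraries. Per the study's methods, the authors aligned reads with Bowtie2 and used Bedtools to count each gene's reads, those with several alignments included, and the submitters' processing notes name edgeR and the builds mm10 and hg19. The authors deposited read counts for 6 libraries, with no normalization. For Day 3 replicate 1 they deposited log2 values of normalized counts, of which 98.9% of 2330 low values came within 0.1 of a whole read once a factor of 1.0505 was divided out (chance gives 20.0%). Up to 2028 rows of a table carried no gene symbol and were left out. Ribosomal Rn45s took 9.36% to 13.0% of the totals.

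Members were matched by symbol. The members, gene lists and tests were chosen with earlier results of these data known. The text names all 10 members, the 4 most abundant genes and every gene at 0 of each other list, the 5 genes most like Hsd3b1, and genes said to be named after their values were seen. The Day 8 test against saline used edgeR 4.0.16 (TMM, filterByExpr, glmQLFTest) on 6 count libraries in 3 groups. Day 3 was compared by limma 3.58.1 (trend) on quantile-normalized log2(normalized count + 1) of 7 libraries, for genes with a mean of at least 1. SEs of edgeR were the fold change over the square root of F. CPM values were not scaled further: on them the median of 14228 genes shifted by -0.24 (log2) from saline to Day 8 and from saline to Day 3, a shift that the tests removed. The label put Day 8 replicate 1 in its group, although the name of its table says Day 3. Alternatives used DESeq2 1.42.0 and R 4.3.3. The scripts were tested on simulated data.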

Additional observations from a re-analysis of the deposited data

How the results depend on the processing

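Among the members' fold changes recomputed under the alternatives, 352 kept their direction and their side of an adjusted p of 0.1, 18 turned and 1 crossed that threshold. By the unadjusted rule calls moved more: members called ran from 0 to 4 for Day 8 against saline (0 as reported), 1 to 5 for Day 3 against saline (4) and 0 to 6 for Day 8 against Day 3 (2). Leaving out each library in turn moved the Day 8 over saline log2 fold change from -1.14 to 3.36 for Star, -3.88 to 3.79 for Cyp11a1, -3.70 to 3.53 for Hsd3b1, -7.20 to 6.52 for Lhcgr, -5.05 to 0.80 for Cyp17a1, -2.46 to 2.75 for Cyp19a1, -4.35 to 1.40 for Fshr and -3.61 to 0.16 for Inha. For Day 3 over saline it moved Foxl2 from -0.36 to 0.52. Foxl2 was at -0.11 there under library-size scaling alone and at -0.063 with Day 8 replicate 1 counted with Day 3, and the cause was not tested. Without saline replicate 2 and Day 8 replicate 2, an alternative chosen after seeing the data, Day 8 over saline was -1.15 for Star, -2.28 for Cyp11a1 and -1.24 for Hsd3b1, Foxl2 at Day 3 was -0.37, and Cyp17a1 at Day 3, at -6.29, passed the adjusted rule in limma (adjusted p = 0.083).

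Genes changed 2-fold at an unadjusted P of 0.05 numbered 453 for Day 8 against saline, 780 for Day 3 against saline and 807 for Day 8 against Day 3. They ran from 229 to 1527, 300 to 2965 and 329 to 1843 when each library was left out in turn. Genes passing the adjusted rule ran from 0 to 15, 0 to 1887 and 0 to 449, the highest of each without Day 8 replicate 1, saline replicate 2 and Day 8 replicate 1. Without the 2 libraries with the highest members, 1143 and 2980 genes passed the unadjusted rule against saline at Day 8 and Day 3, and 1351 the adjusted rule at Day 3. With Day 8 replicate 1 counted with Day 3, the Day 8 counts against saline were 1094 and 58 by the 2 rules, and against Day 3 they were 1958 and 1062. DESeq2 called 49 genes by the adjusted rule at Day 8 against saline, library-size scaling alone 1194 by the unadjusted rule at Day 3, and no filter 35 and 27 by the adjusted rule at Day 3 against saline and Day 8 against Day 3.

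In a fit with a replicate block, 157, 672 and 519 genes passed the unadjusted rule for Day 8 against saline, Day 3 against saline and Day 8 against Day 3, and Cyp19a1 at Day 8 turned to 0.70. The deviations of same-numbered libraries from their group means correlated at -0.04 (saline and Day 3), -0.14 and -0.05 (saline and Day 8), and -0.01 and -0.02 (Day 3 and Day 8). In a group of 2 such deviations mirror each other, so these values cannot decide whether same-numbered libraries came from the same animal. With the block, 5 of 9 members were lower at Day 3 than with saline by the unadjusted rule, and 5 were higher at Day 8 than at Day 3. Of all 16455 genes, 672 and 519 passed in these 2 comparisons, in either direction. At Day 8 against saline 1 member was higher and 1 lower, where 157 of 15388 genes passed in either direction. None of the members passed the adjusted rule. The SE of Inha at Day 3 against saline was 0.53 with the block and 2.14 without it. Replicate number 3 occurs only at Day 8, so the block fits Day 8 replicate 3 exactly and takes it out of the spread. Leaving that library out, with no block, gave an SE of 1.10 for Inha. The smaller SE and the added calls therefore cannot show that same-numbered libraries pair.

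Adding other luteal genes that belong to no other list, the luteal share was 62.9% and 82.8% with saline, 53.9% and 44.8% at Day 3 and 65.6%, 95.9% and 88.2% at Day 8. Without Hsd3b1 it was 22.7% and 37.5% with saline, 9.29% in Day 3 replicate 1, and 17.6% and 86.1% in Day 8 replicates 1 and 2. Without Foxl2, chosen after seeing the data, it was 69.8% and 84.8%, 93.8% and 78.9%, and 81.8%, 96.1% and 96.8%. With Rn45s out of the library total, the 10 members summed to 304.7 and 1309 CPM with saline, 54.9 and 89.2 at Day 3, and 137.7 and 4061 in Day 8 replicates 1 and 2. Depth limits what can be said of Amh in all libraries, and of Lhcgr and Fshr outside saline replicate 2 and Day 8 replicate 2, where none had over 3 counts.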

Other observations

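Adipocyte genes, which mark fat attached to the uterus or within it, varied between libraries in another order than the ovarian genes. The 6 genes summed to 534 and 2438 CPM (reads scaled to a library total of 1000000) with saline, 1994 and 254 at Day 3, and 149, 257 and 188 at Day 8. Day 3 replicate 1, in which Hsd3b1 was at 0.0074 CPM, was thus the second highest library for fat genes. All 6 were lower at Day 8 than with saline by at least 2-fold with an unadjusted P of 0.05 in edgeR, where 1.42% of genes were lower, and none passed with an adjusted p of 0.1. Adipoq, the fat cell hormone adiponectin, had a log2 fold change of -2.69 (SE 0.43) and Fabp4, a fatty acid carrier, one of -2.83 (SE 0.71), each with an edgeR adjusted p of 0.96. Car3 and Cidec, the other 2 of the 4 most abundant, were at -2.54 (SE 0.67) and -2.08 (SE 0.38).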
